A study of Homo sapiens with 12 samples.

Results

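SOX9, SOX4, HNF4A, FOXA1, FOXA2, ONECUT2, GATA6 and SPDEF are transcription factors of the bile duct, hepatocyte and foregut lineages. They were taken from the count table by exact gene symbol, which gave 8 genes of the 58216 in the table. RNA had been sequenced from HCCC9810 and RBE, both established human lines grown from intrahepatic cholangiocarcinoma, which arises in ducts inside the liver. In each line 3 libraries came from cells given anlotinib at 5 µM for 24 h and 3 from control cells, 12 libraries in 4 groups in all. Anlotinib is an oral inhibitor of several receptor tyrosine kinases, among them the VEGF, FGF and PDGF receptors and KIT. The drug was dissolved in DMSO to a final 0.1%. Whether control cells received the solvent is not given in the sources used here. In the series' design text the replicates are biological. Each p-value below rests on the spread between libraries of the same group, estimated jointly over the 4 groups. It does not cover other cell lines.

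Libraries are named by the number in their column header, RBE control 1 to 3, RBE anlotinib 4 to 6, HCCC9810 control 7 to 9 and HCCC9810 anlotinib 10 to 12. The sample titles pair each of these numbers with the other treatment of the same line. Groups follow the words in the headers. If the numbers in the titles were followed in place of the words, every anlotinib effect below would change sign, and the libraries compared below as untreated would be of treated cells. Library totals ran from 15215193 to 40963529 counts.

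Hepatocytes and bile duct cells descend from a shared embryonic precursor, the hepatoblast. The nuclear receptor HNF4A directs the hepatocyte programme, and the HMG-box factor SOX9 is among the first genes switched on in cells that form ducts. FOXA1 and FOXA2 are pioneer forkhead factors, which open chromatin in the foregut endoderm before liver genes are active. SOX4 acts with SOX9 in the developing ducts of the mouse. ONECUT2, a cut-homeodomain factor, shares a role in mouse duct formation with its relative ONECUT1. GATA6 is a zinc-finger factor of early endoderm. SPDEF, an ETS factor, drives goblet cell maturation in the mouse intestine and airway, where AGR2 and mucin genes are among the genes that depend on it.

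In GRCh38 with GENCODE 29, the genes were annotated as protein-coding at these places. SOX9 (ENSG00000125398) lay on chromosome 17 at 72121020 to 72126420 on the plus strand, and SOX4 (ENSG00000124766) on chromosome 6 at 21592768 to 21598619, also plus. HNF4A (ENSG00000101076) lay on chromosome 20 at 44355700 to 44434596 on the plus strand, and FOXA2 (ENSG00000125798) on chromosome 20 at 22581005 to 22585455 on the minus strand. FOXA1 (ENSG00000129514) lay on chromosome 14 at 37589984 to 37596059, minus strand. ONECUT2 (ENSG00000119547) and GATA6 (ENSG00000141448) are both on the plus strand of chromosome 18, at 57435685 to 57491297 and at 22169443 to 22202528. SPDEF (ENSG00000124664) lay on the minus strand of chromosome 6 at 34537802 to 34556333. Exons of GATA6 overlapped the antisense genes GATA6-AS1 and AC091588.3 over 14.2% of their length, and whether counting used strand is not given in the sources used here. At the other 7 genes the overlap was 2.9% or less.

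The 250 bases upstream of the RefSeq start (GRCh38.p14) are shown for genes whose levels carried the results below. SPDEF and FOXA1 were called lower with anlotinib in both lines, though the FOXA1 call in RBE lay close to the threshold. ONECUT2 and SOX4 were called for a difference between the lines, SOX4 not under every setting. HNF4A, with a pair of annotated starts, separated the untreated lines. All are printed 5′ to 3′ on the strand of the gene, ending at the base before the start, with motif matches in capitals. The windows are chr6:34556330-34556579 (minus strand) for SPDEF, chr14:37595250-37595499 (minus strand) for FOXA1, chr18:57435124-57435373 for ONECUT2, chr6:21593501-21593750 for SOX4, chr20:44355449-44355698 for the first and chr20:44400989-44401238 for the second start of HNF4A.
SPDEF: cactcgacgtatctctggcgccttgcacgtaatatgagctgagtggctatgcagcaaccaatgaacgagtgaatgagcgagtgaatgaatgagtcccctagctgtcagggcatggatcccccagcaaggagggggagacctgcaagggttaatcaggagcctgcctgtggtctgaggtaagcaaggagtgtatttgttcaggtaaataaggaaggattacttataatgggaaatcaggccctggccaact
FOXA1: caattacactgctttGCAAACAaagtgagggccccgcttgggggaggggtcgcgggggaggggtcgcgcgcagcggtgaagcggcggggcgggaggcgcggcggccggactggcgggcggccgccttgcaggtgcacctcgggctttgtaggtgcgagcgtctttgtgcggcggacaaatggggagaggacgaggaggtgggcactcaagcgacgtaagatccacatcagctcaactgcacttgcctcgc
ONECUT2: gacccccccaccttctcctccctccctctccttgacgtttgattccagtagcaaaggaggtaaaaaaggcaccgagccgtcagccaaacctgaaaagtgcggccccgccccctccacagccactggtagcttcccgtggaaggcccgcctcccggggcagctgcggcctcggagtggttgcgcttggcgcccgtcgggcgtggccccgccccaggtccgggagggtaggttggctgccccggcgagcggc
SOX4: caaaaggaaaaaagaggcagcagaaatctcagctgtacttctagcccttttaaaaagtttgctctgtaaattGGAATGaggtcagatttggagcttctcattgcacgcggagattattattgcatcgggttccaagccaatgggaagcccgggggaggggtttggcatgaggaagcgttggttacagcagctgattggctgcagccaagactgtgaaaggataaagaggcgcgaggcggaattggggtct
HNF4A first start: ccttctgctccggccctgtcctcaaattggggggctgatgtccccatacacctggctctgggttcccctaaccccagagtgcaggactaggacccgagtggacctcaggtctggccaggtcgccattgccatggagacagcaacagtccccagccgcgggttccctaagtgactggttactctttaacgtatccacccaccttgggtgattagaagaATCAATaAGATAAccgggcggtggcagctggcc
HNF4A second start: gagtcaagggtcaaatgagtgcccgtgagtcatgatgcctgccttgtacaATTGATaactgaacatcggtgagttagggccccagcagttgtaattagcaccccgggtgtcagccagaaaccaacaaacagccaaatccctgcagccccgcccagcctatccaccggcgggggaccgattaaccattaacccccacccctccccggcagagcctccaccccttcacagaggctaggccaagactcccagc

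A search of both strands used 8 short letter strings, and RefSeq windows were found for 6 of the 8 genes. The strings were TGTTTNC for forkhead factors, AACAAT for SOX, ATCAAT for ONECUT, AGATAA for GATA, CAAAGTCCA for HNF4, CCGGAT for SPDEF-type ETS sites, GGAATG for TEAD and TATAAA for the TATA box. No string overlapped another in the matches found. The forkhead string was found once, in the FOXA1 window with its first base 235 bases before the start, and it occurs in 15.5% of the 35116 windows in the table. Both HNF4A windows held the ONECUT string, at 33 and at 200 bases before the start, against 5.58% of all windows. The first HNF4A window also held the GATA string at 26 bases, against 9.17% of all windows. SOX4 held the TEAD string at 178 bases, against 11.9% of all windows. The SPDEF, ONECUT2 and GATA6 windows held none of the 8 strings. Base composition differed among them, with 68.8% G and C and 20 CpG in the ONECUT2 window, 67.2% and 26 CpG at FOXA1, 50.8% and 6 CpG at SPDEF, and 48.8% and 8 CpG at SOX4, beside medians of 58.0% and 11 CpG over all windows. The SOX4 and FOXA1 windows lie inside the GENCODE 29 bounds of those genes, since RefSeq places the start farther downstream. A match is a string of letters and no evidence of binding.

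Levels are given as CPM, the counts of a gene scaled to a common library total after TMM scaling, which adjusts each library total for composition. A gene is called where edgeR's quasi-likelihood F-test gave a Benjamini-Hochberg adjusted p under 0.05 over all 18035 genes tested. All 8 genes passed the low-count filter, HNF4A only through its level in RBE. Fold changes are log2 values with their standard errors (SE). In bulk RNA, fewer cells expressing a gene and less of its RNA per cell cannot be told apart.

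**Figure D1:**
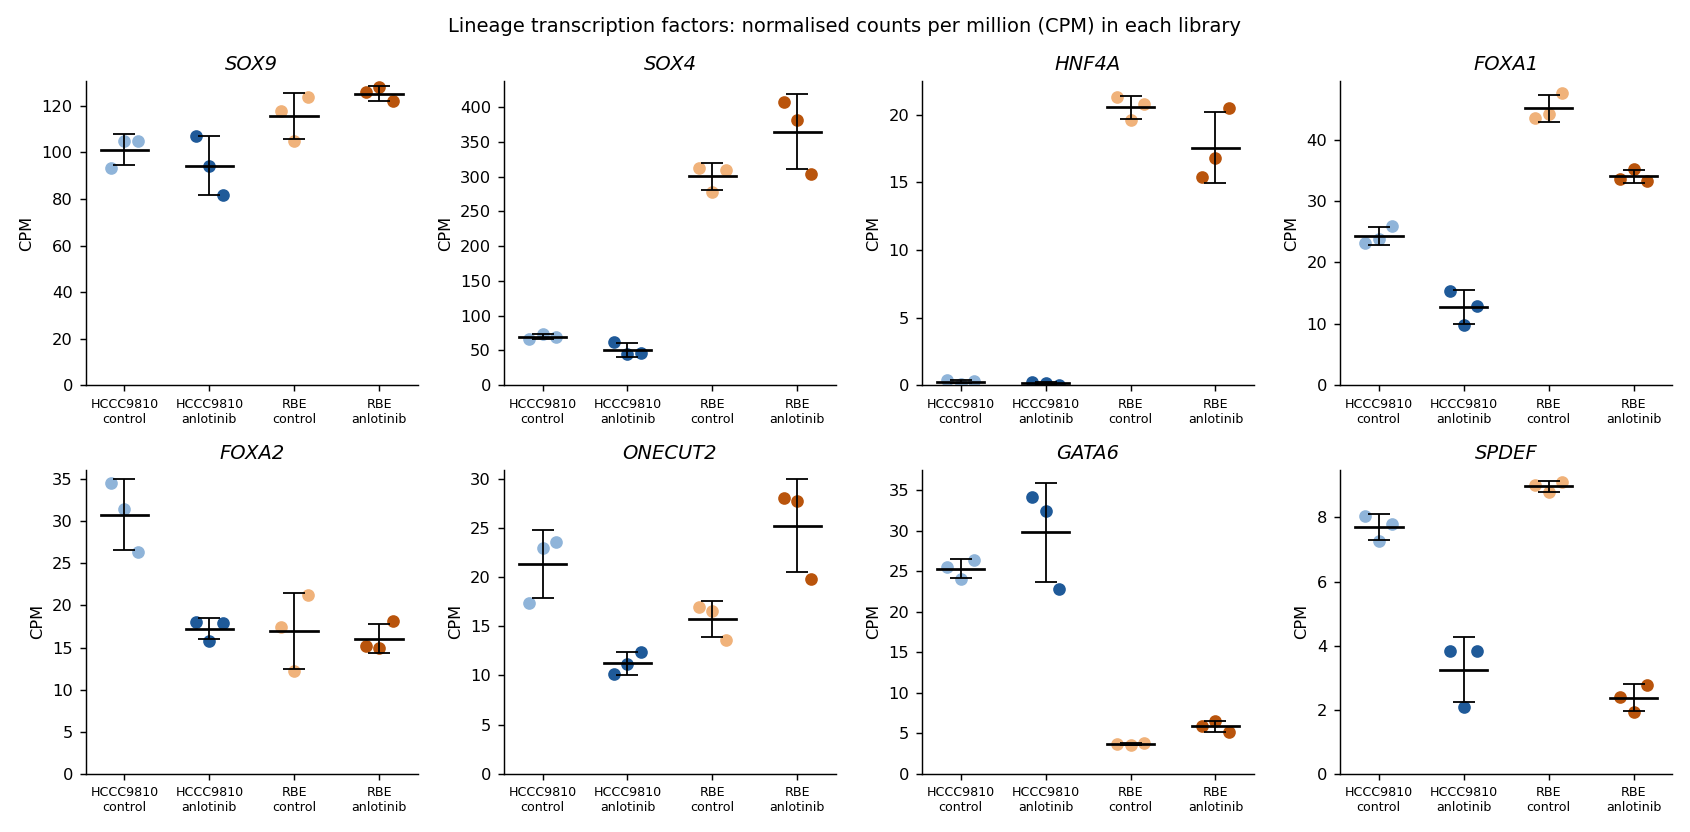
CPM of each lineage factor (y axis, starting at 0, one panel a gene) in each of the 12 libraries (points) of the 4 groups (x axis), with the mean (line) and SD (bars) of 3 libraries. SPDEF and FOXA1 sit lower with anlotinib in both lines, and ONECUT2 sits lower in HCCC9810 and higher in RBE.

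Markers of duct, hepatocyte and other cells were read beside the labelled origin, and they did not all point the same way. KRT19, a keratin of bile duct cells, stood at 3500 ± 518 CPM (SD, n = 3) in HCCC9810 control and 704 ± 85.5 CPM (SD, n = 3) in RBE control. EPCAM, an epithelial adhesion molecule, stood at 123 ± 16.4 and 47.6 ± 5.81 CPM (SD, n = 3 each). ALB, the gene of hepatocyte albumin, stood at 2.42 ± 1.53 and 6.09 ± 7.25 CPM. SERPINA1, also on the hepatocyte list, stood at 87.6 ± 3.88 and 133 ± 16.2 CPM. Of the duct genes, PKHD1 stood at 0.135 ± 0.0596 and 66.7 ± 12.4 CPM, and CFTR at 7.55 ± 2.43 and 0.244 ± 0.107 CPM. Over 14 markers of blood, endothelial and stromal cells the summed level was 99.4 to 127 CPM in HCCC9810 control, 91.4 to 135 CPM in HCCC9810 anlotinib, 23.0 to 33.6 CPM in RBE control and 38.3 to 47.4 CPM in RBE anlotinib. The ranges overlapped in HCCC9810 and were apart in RBE. Of those 14, the stromal gene LUM stood at 34.5 CPM and the endothelial gene PECAM1 at 30.2 CPM in HCCC9810 control, and no marker was at 0 in every library. The part of other cell types in the results below was not tested.

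The untreated lines ranked these factors differently. In HCCC9810 control, SOX9 had the highest level per transcript length, 24.9 ± 2.71 RPKM (SD, n = 3), followed by SOX4 at 11.5 ± 1.06 and FOXA2 at 11.4 ± 1.21 RPKM. GATA6 at 6.21 ± 0.366, FOXA1 at 5.92 ± 0.579, SPDEF at 3.89 ± 0.13 and ONECUT2 at 1.28 ± 0.255 RPKM came next, and HNF4A was last at 0.031 ± 0.0146 RPKM. The ranges of SOX4 and FOXA2 overlapped, as did those of GATA6 and FOXA1. The other neighbours in this order had separate ranges.

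In RBE control the order began with SOX4 at 53.2 ± 3.3 RPKM, then SOX9 at 30.4 ± 2.4 and FOXA1 at 11.7 ± 0.462 RPKM (SD, n = 3). FOXA2 followed at 6.75 ± 1.74, SPDEF at 4.85 ± 0.0585, HNF4A at 2.92 ± 0.123, ONECUT2 at 1.0 ± 0.126 and GATA6 at 0.971 ± 0.0147 RPKM. The FOXA2 and SPDEF ranges overlapped, as did those of ONECUT2 and GATA6. With anlotinib the order in RBE moved SPDEF to the last place at 1.32 ± 0.179 RPKM, its range overlapping that of GATA6 at 1.61 ± 0.265 RPKM. In HCCC9810 with anlotinib, SOX9 was again first at 22.1 ± 3.37 RPKM and HNF4A last at 0.0167 ± 0.0146 RPKM.

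**Figure D2:**
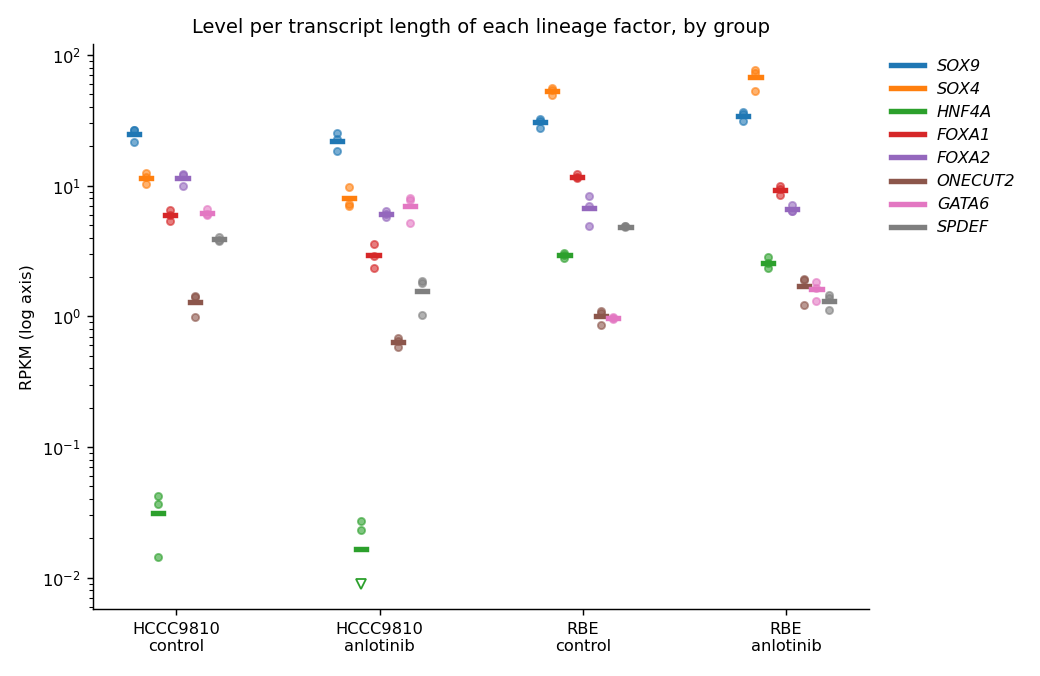
RPKM (log y axis) of each lineage factor (colour) in the 3 libraries (points) and on average (bar) in each of the 4 groups (x axis); the open triangle marks a library with 0 counts of HNF4A, which the log axis cannot show. HNF4A stands at 0.031 RPKM in HCCC9810 control and 2.92 RPKM in RBE control, and SOX9 is among the top 2 in each group.

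Of the 8 factors, 6 differed between the untreated lines, with SOX4, HNF4A and FOXA1 higher in RBE and FOXA2, ONECUT2 and GATA6 lower. That share is close to the background, since 64.1% of all genes tested were called in this comparison. HNF4A had 5, 2 and 6 counts in HCCC9810 control 7, 8 and 9, which is 0.336, 0.106 and 0.268 CPM. Its RBE control libraries 1, 2 and 3 held 594, 363 and 682 counts, at 21.3, 19.6 and 20.8 CPM. Every RBE library stood far above every HCCC9810 library. The fitted log2 difference was 6.44 ± 0.30 SE, and 1.92 with limma on log2(RPKM + 1), whose pseudocount shrinks low genes. It is given as a description, since it rests on 13 counts in HCCC9810 control and the gene passed the low-count filter only through RBE.

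GATA6 showed the opposite pattern, with 25.5, 24.1 and 26.4 CPM in HCCC9810 control against 3.69, 3.61 and 3.79 CPM in RBE control. The ranges were apart and the difference was -2.77 ± 0.16 SE, 6.84-fold (edgeR, adjusted p = 8.98e-10). SOX4 stood at 65.8, 72.9 and 69.4 CPM in HCCC9810 control and at 313, 278 and 310 CPM in RBE control. It was thus higher in each RBE library, by 2.11 ± 0.14 SE on the log2 scale or 4.33-fold (edgeR, adjusted p = 3.8e-09).

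FOXA1 and FOXA2, close relatives that bind the same kind of site, leaned to different lines. FOXA1 was higher in RBE control by 0.89 ± 0.13 (edgeR, adjusted p = 3.28e-05), and FOXA2 was lower, at -0.85 ± 0.17 (adjusted p = 0.000536). ONECUT2 was lower in RBE at -0.45 ± 0.16 (adjusted p = 0.0259), a call that held under 12 of 21 alternative settings and was lost without RBE control 1, 2 or 3 or HCCC9810 control 8 or 9, at -0.44 to -0.31. SOX9 had a difference of 0.19 ± 0.11 with overlapping ranges (adjusted p = 0.141), which was called without RBE control 2, at 0.33 (adjusted p = 0.0271). SPDEF had a difference of 0.22 ± 0.19 (adjusted p = 0.319) although its ranges, 7.27 to 8.06 CPM in HCCC9810 and 8.79 to 9.11 CPM in RBE, were apart.

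Other liver-enriched transcription factors were taken from a list of 22, of which 20 were tested. In untreated RBE against untreated HCCC9810, 11 were called higher and 7 lower, with a median of 0.76 beside -0.01 over all genes. Of all genes tested, 64.1% were called. FOXA3, the remaining FOXA gene, stood at 0.0326 ± 0.0285 CPM in HCCC9810 control and 3.67 ± 0.665 CPM in RBE control (SD, n = 3 each). FOXA3 passed the low-count filter only through RBE, so its edgeR call as higher in RBE is a description. It had too few counts in HCCC9810 control for a fold to be given. PROX1, a homeodomain factor of the early liver bud, stood at 0.712 ± 0.418 and 7.23 ± 1.16 CPM, a log2 difference of 3.25 ± 0.34 SE (edgeR, adjusted p = 8.05e-07). RXRA, the partner of many nuclear receptors, was lower in RBE at -1.24 ± 0.14, as were CEBPB at -1.20 ± 0.16 and GATA4 at -0.91 ± 0.12.

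**Figure D3:**
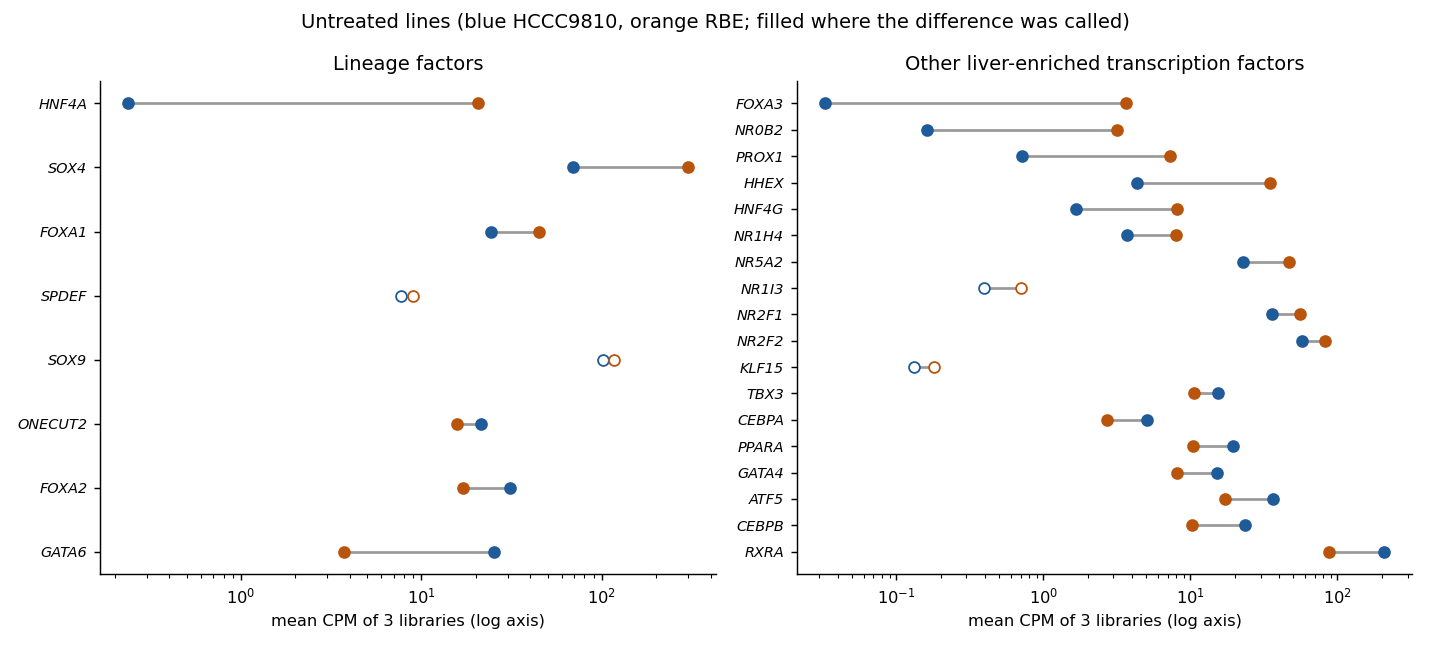
Mean CPM (log x axis) in untreated HCCC9810 (blue) and untreated RBE (orange) of the lineage factors (left) and of 18 of the tested liver-enriched transcription factors (right), joined by a line and filled where called. HNF4A (left) and FOXA3 (right) span the widest distances in their panels, each with the RBE point to the right.

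Hepatocyte genes followed in the same direction (64.1% of all genes were called here, 31.5% higher and 32.6% lower, median -0.01). They had 10 of 17 tested called higher in RBE control and 0 lower (edgeR), at a median of 1.80. At an unadjusted p under 0.05 these were 12 and 0, DESeq2 also called 10 and 0, and limma on log2(RPKM + 0.1) called 10 and 1. AMBP, a plasma protein of hepatocytes, differed by 5.74 ± 0.20 and APOH by 5.09 ± 0.28. Goblet and mucous cell genes went the other way, with 14 of 19 lower in RBE and 5 higher, at a median of -4.70. AGR2, a secretory-cell disulfide isomerase, had 942 ± 155 CPM in HCCC9810 control and 0.184 ± 0.0538 CPM in RBE control (SD, n = 3). The SPDEF difference between the same libraries, 0.22, had a 95% interval of -0.18 to 0.62. The bile duct list was split, with 9 of 20 higher and 8 lower. PKHD1, the fibrocystin gene, stood at 0.135 ± 0.0596 CPM in HCCC9810 control and 66.7 ± 12.4 CPM in RBE control, and the chloride channel gene CFTR at 7.55 ± 2.43 and 0.244 ± 0.107 CPM (SD, n = 3 each). A gene that enters these lists only through the line where it is high had to differ, so the counts are descriptions.

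Among the treatment effects, SPDEF gave the largest fold of the 8 in each line. In HCCC9810, 5 of the 8 factors were called lower with anlotinib, namely SPDEF, FOXA1, ONECUT2, FOXA2 and SOX4, and 0 were called higher by edgeR, also at an unadjusted p under 0.05. In that comparison 23.9% of all genes tested were called, 12.8% as lower. In RBE, 4 of 8 were called, SPDEF and FOXA1 lower and ONECUT2 and GATA6 higher, where 17.7% of all genes were called, 8.32% as lower and 9.37% as higher. SPDEF and FOXA1 were called lower in both, FOXA1 in RBE close to the threshold (edgeR, adjusted p = 0.0461). The share of all genes called lower in both lines was not counted, so no excess is read from this overlap.

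SPDEF stood at 8.06, 7.27 and 7.78 CPM in HCCC9810 control and at 3.82, 2.09 and 3.84 CPM with anlotinib. All treated libraries were below all controls, a fall of 2.39-fold with a log2 change of -1.26 ± 0.21 SE (edgeR, Benjamini-Hochberg adjusted p = 0.000781). In RBE it stood at 9.0, 8.79 and 9.11 CPM in control and at 2.40, 1.93 and 2.77 CPM with anlotinib. Here too the groups were apart, and SPDEF fell 3.86-fold, at -1.95 ± 0.20 SE (edgeR, adjusted p = 1.34e-05). The difference between the lines, -0.69 with a 95% interval of -1.31 to -0.08, missed the threshold after adjustment (adjusted p = 0.11) and passed it without HCCC9810 anlotinib 11, at -0.96 (adjusted p = 0.0174). Both SPDEF calls held under all 22 alternative settings. The values rest on few reads, 143 counts over the 3 treated HCCC9810 libraries and 217 over the 3 treated RBE libraries.

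FOXA1 stood at 23.1, 23.9 and 26 CPM in HCCC9810 control and at 15.4, 9.85 and 12.9 CPM with anlotinib. The groups were apart, and the gene fell 1.92-fold, at -0.94 ± 0.14 SE (edgeR, adjusted p = 0.000335). In RBE its values were 43.5, 44.2 and 47.7 CPM in control and 33.6, 35.3 and 33.3 CPM with anlotinib. The groups were again apart, but the fall was smaller, 1.32-fold at -0.41 ± 0.13 SE, and close to the threshold (edgeR, adjusted p = 0.0461). That RBE call held under only 7 of 22 alternatives, with adjusted p from 0.00522 to 0.234 and changes from -0.44 to -0.32. It was lost without any 1 of the 6 RBE libraries, and without HCCC9810 control 8 or 9 or HCCC9810 anlotinib 12, which enter the shared spread. The test of the difference between lines gave 0.54 ± 0.19 (edgeR, adjusted p = 0.0695), and 0.68 without HCCC9810 anlotinib 10 (adjusted p = 0.0312).

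FOXA2 stood at 34.6, 31.5 and 26.3 CPM in HCCC9810 control and at 18.0, 15.8 and 17.9 CPM with anlotinib. Treated and control libraries did not overlap, and FOXA2 fell 1.79-fold, at -0.84 ± 0.18 SE (edgeR, adjusted p = 0.00365). In RBE the values were 17.5, 12.2 and 21.2 CPM in control and 15.2, 14.9 and 18.1 CPM with anlotinib. These ranges overlapped, with a change of -0.09 and a 95% interval of -0.46 to 0.28 (edgeR, adjusted p = 0.776). The difference between lines was 0.75, with an interval of 0.22 to 1.27 and an edgeR adjusted p of 0.0515. Without RBE control 3 it was 0.95 (adjusted p = 0.0244), and 6 of 21 alternatives called it.

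ONECUT2 moved in opposite directions. HCCC9810 had 17.4, 23.0 and 23.6 CPM in control and 10.1, 11.2 and 12.4 CPM with anlotinib. All treated libraries were lower, and ONECUT2 fell 1.91-fold, at -0.93 ± 0.17 SE (edgeR, adjusted p = 0.00145). RBE had 17.0, 16.6 and 13.6 CPM in control and 28.1, 27.8 and 19.8 CPM with anlotinib. All treated libraries were higher there, and ONECUT2 rose 1.62-fold, at 0.69 ± 0.16 SE (edgeR, adjusted p = 0.00786). The RBE call was lost with limma on log2(RPKM + 0.1), at 0.68 (adjusted p = 0.0988), and held under the other 21 of 22 alternatives, with values from 0.41 to 0.84. The effects differed by 1.62 ± 0.23 SE, with a 95% interval of 1.12 to 2.12 (edgeR interaction contrast, adjusted p = 0.000496), and 16.6% of all genes were called in that comparison, 8.92% as higher in RBE and 7.66% as lower.

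The transcript of ONECUT2 is long and poor in G and C, 41.8% over 16234 exonic bases. Across genes, the HCCC9810 fold changes rose with GC content (Spearman rho = 0.301), while the rho in RBE was -0.0344. Genes are not independent, so these are descriptions. With a per-library correction for GC content and length the ONECUT2 values became -0.52 in HCCC9810, 0.56 in RBE and 1.08 for the difference, each called. Its lowest treated RBE library was number 6 and its lowest control in HCCC9810 number 7. Without these 2 libraries, chosen with earlier results of these data known, the values were -1.05, 0.82 and 1.87. Both libraries lay nearest the other group of their line, so leaving them out had to enlarge the values and adds no support.

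SOX4 stood at 65.8, 72.9 and 69.4 CPM in HCCC9810 control and at 61.6, 44.6 and 45.5 CPM with anlotinib. The ranges were apart, and SOX4 fell 1.37-fold, at -0.46 ± 0.14 SE (edgeR, adjusted p = 0.0272). That call was lost, among others, without HCCC9810 control 8 (adjusted p = 0.102) or 9 (0.0738), or without HCCC9810 anlotinib 11 (0.0976) or 12 (0.113), and held under 16 of 22 alternatives. RBE had 313, 278 and 310 CPM in control and 408, 382 and 304 CPM with anlotinib. Library 6 fell within the control range, and the change of 0.28 ± 0.13 was not called (adjusted p = 0.175). Without library 6 the RBE change was 0.40 and called (adjusted p = 0.0396).

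The SOX4 effects differed between the lines by 0.74 ± 0.19 SE (edgeR interaction contrast, adjusted p = 0.0194). This call held under 16 of 21 alternatives and was lost without RBE anlotinib 4 (adjusted p = 0.058) or 5 (0.0534), HCCC9810 control 8 (0.0525) or HCCC9810 anlotinib 12 (0.053). Exons of SOX4 overlap the gene AL512380.2 over 2.9% of their length. SOX4 and ONECUT2 were the 2 of the 8 factors called for a difference between the lines. In that comparison 16.6% of all genes tested were called, so the count is not read as a feature of these factors.

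GATA6 had 25.5, 24.1 and 26.4 CPM in HCCC9810 control and 34.2, 32.4 and 22.8 CPM with anlotinib. One treated library lay below all controls and the others above them, and the change of 0.23 (95% interval -0.08 to 0.54) was not called (edgeR, adjusted p = 0.257). Without HCCC9810 anlotinib 12, that lowest library, the change was 0.40, with an adjusted p of 0.05 as rounded, at the threshold. In RBE, where the gene is low, it had 3.69, 3.61 and 3.79 CPM in control and 5.92, 6.52 and 5.15 CPM with anlotinib. All treated libraries were higher, and GATA6 rose 1.59-fold, at 0.67 ± 0.16 SE (edgeR, adjusted p = 0.00975). The call was lost without RBE anlotinib 5, at 0.59 (adjusted p = 0.0559), and with limma on RPKM, at 0.40 (adjusted p = 0.0867). A difference between lines of 0.44, interval -0.03 to 0.91, was not called (adjusted p = 0.174). GATA6-AS1, which shares exonic bases with it, had 1.87 ± 0.161 and 2.14 ± 0.387 CPM in HCCC9810 without and with anlotinib and 0.177 ± 0.0836 and 0.229 ± 0.13 CPM in RBE, and was not called for anlotinib in either line.

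SOX9 was not called in any comparison. Its levels were 93.4, 105 and 105 CPM in HCCC9810 control, 107, 94.4 and 81.6 CPM in HCCC9810 anlotinib, 118, 105 and 124 CPM in RBE control and 126, 128 and 122 CPM in RBE anlotinib. Control and treated ranges overlapped in both lines. The change was -0.10 in HCCC9810, with a 95% interval of -0.34 to 0.14 (edgeR, adjusted p = 0.525), and 0.12 in RBE, with an interval of -0.12 to 0.35 (adjusted p = 0.526). Log2 changes larger than 0.35 in size are therefore outside both intervals.

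HNF4A in RBE was 21.3, 19.6 and 20.8 CPM in control and 15.4, 16.8 and 20.5 CPM with anlotinib. The highest treated library lay inside the control range, and the change was -0.23, with an interval of -0.61 to 0.14 (edgeR, adjusted p = 0.415). In HCCC9810 the treated libraries held 3, 3 and 0 counts after 5, 2 and 6 in control. The change there was -0.78, with a wide 95% interval of -2.24 to 0.64, and was not called (edgeR, adjusted p = 0.403).

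**Figure D4:**
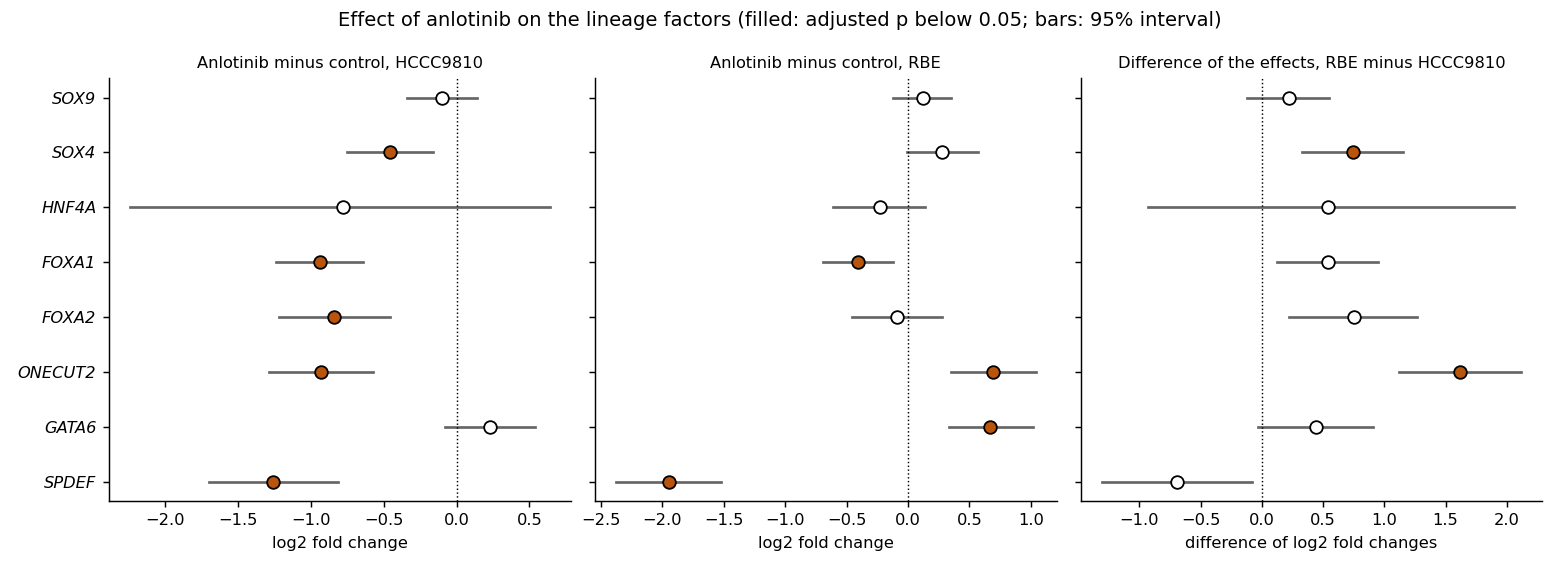
Log2 fold change with anlotinib of each lineage factor in HCCC9810 (left) and RBE (middle), and the difference of these effects as RBE minus HCCC9810 (right), with 95% intervals and filled points where the adjusted p was below 0.05. ONECUT2 lies at -0.93 and 0.69 in the lines, and SPDEF lies lowest in both.

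The other liver-enriched factors did not share one direction under anlotinib. For this and the lists that follow, 23.9% of all genes were called in HCCC9810 and 17.7% in RBE. Of 20 tested, 3 were called higher and 3 lower in HCCC9810 (median -0.02, all genes -0.05), and 3 higher and 4 lower in RBE (median -0.02, all genes 0.02). The 4 became 2 without RBE control 1 or 3 or RBE anlotinib 4 or 5. NR2F1, an orphan nuclear receptor, fell in both lines, from 35.9 ± 3.71 to 16.8 ± 5.06 CPM in HCCC9810 and from 56.1 ± 3.78 to 27.9 ± 0.232 CPM in RBE (SD, n = 3 each). PROX1 rose in RBE from 7.23 ± 1.16 to 19.6 ± 4.35 CPM (1.45 ± 0.25, adjusted p = 0.00105), and its effects differed between the lines by 1.89 ± 0.55 (adjusted p = 0.0325). TBX3, which promotes hepatoblast growth in the mouse, also rose in RBE, at 0.83 ± 0.15, with a difference between lines of 1.0 ± 0.21 (adjusted p = 0.00608). NR1H4, the bile acid receptor FXR, fell in HCCC9810 at -1.32 ± 0.38 (adjusted p = 0.0219) and had -0.88 ± 0.30 in RBE (adjusted p = 0.0551).

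Duct and foregut transcription factors gave 3 of 16 higher and 4 lower in HCCC9810, and 4 higher and 2 lower in RBE, where the 4 became 2 without RBE control 2 or RBE anlotinib 5. EHF, an epithelial ETS factor related to SPDEF, fell from 130 ± 17.6 to 69.1 ± 6.34 CPM in HCCC9810 and from 78.8 ± 16.4 to 41.8 ± 8.64 CPM in RBE (SD, n = 3 each), at -0.91 ± 0.17 in each line (edgeR, adjusted p = 0.00208 and 0.00219). ELF3, of the same ETS branch, had 0.07 ± 0.11 in HCCC9810 and rose in RBE at 0.38 ± 0.11 (adjusted p = 0.0315), with 18.5% of its exon length shared with other genes. KLF6, a zinc-finger factor, rose in both lines, at 0.81 ± 0.14 and 1.20 ± 0.14. KLF5, a factor of epithelial progenitors, rose in RBE at 0.50 ± 0.10 and differed between the lines by 0.67 ± 0.14 (adjusted p = 0.00605).

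Among relatives within the families of the 8 factors, 3 of 12 tested were called higher and 1 lower in HCCC9810 and 1 higher and 3 lower in RBE. SOX12, which belongs to the SOX4 subgroup, rose in HCCC9810 at 0.52 ± 0.15 (edgeR, adjusted p = 0.0184), where SOX4 fell, and differed between lines by -0.67 ± 0.20 (adjusted p = 0.0365). GATA4 rose in HCCC9810 at 0.45 ± 0.12 (adjusted p = 0.0145) and GATA3 was called for the difference between lines only, at 0.81 ± 0.21 (adjusted p = 0.0184). ONECUT1 was at 0 in every HCCC9810 library and at 0.181 ± 0.0362 CPM in RBE control, and SOX17 at 0.018 CPM or less on average in each group.

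Bile duct cell genes were called on one side in the test of the difference between lines. Of 20 tested, 10 were called lower and 1 higher in HCCC9810 (median -0.68, all genes -0.05), and 5 higher and 2 lower in RBE (median 0.25, all genes 0.02). Over all genes tested, 23.9% were called in HCCC9810, 17.7% in RBE and 16.6% for the difference, 8.92% as higher in RBE. In the test of the difference, 10 of 20 were higher in RBE and 0 lower (edgeR, median 0.78, all genes 0.09). At an unadjusted p under 0.05 these were 11 and 0, by DESeq2 10 and 0, and by limma 9 and 0 on log2(RPKM + 1) and 7 and 0 on log2(RPKM + 0.1). The count higher dropped to 6 without RBE control 1 or 3 or RBE anlotinib 4 or 5. Several of the 10 called higher are keratins, and genes of the list are not independent, so the counts are descriptions. Markers of other cell types, ALB included, were called lower for 3 of 12 and higher for 1 in HCCC9810 (median -0.66), and higher for 3 and lower for 0 in RBE (median 0.15; also 3 and 0 at an unadjusted p under 0.05 and by DESeq2 and limma on log2(RPKM + 1), and 2 and 0 by limma on log2(RPKM + 0.1)). Among them the endothelial gene CDH5 fell in HCCC9810 from 1.38 ± 0.298 to 0.36 ± 0.0644 CPM and LUM from 34.5 ± 6.47 to 16.7 ± 3.62 CPM, while the endothelial gene VWF rose in RBE from 0.321 ± 0.153 to 3.78 ± 0.894 CPM. Their part in the duct counts was not tested. KRT19 fell in HCCC9810 from 3500 ± 518 to 1890 ± 185 CPM and rose in RBE from 704 ± 85.5 to 1020 ± 136 CPM, a difference of 1.42 ± 0.20 (adjusted p = 0.000405). SPP1, the osteopontin gene of cholangiocytes, rose in RBE from 161 ± 36.8 to 330 ± 40.2 CPM. Some duct genes went against that split. GGT1, a canalicular and duct enzyme, fell in both lines, at -1.10 ± 0.24 and -0.90 ± 0.20. AQP1, with 26.5% of its exon length shared with another gene, also fell in both, at -0.70 ± 0.19 and -0.89 ± 0.14. CLDN4 rose in HCCC9810 at 0.49 ± 0.14 (edgeR, adjusted p = 0.0203) and had 0.40 ± 0.14 in RBE (adjusted p = 0.0605).

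Goblet and mucous cell genes include several that depend on SPDEF in the mouse. Over all genes tested, 23.9% were called in HCCC9810 and 17.7% in RBE. In HCCC9810, 7 of 19 tested were called lower and 2 higher (median -0.18), and in RBE 4 lower and 3 higher (median 0.09). The 4 became 0 without RBE anlotinib 4 or 5, 1 without RBE control 2, and 2 without RBE control 1 or 3 or HCCC9810 control 8. CREB3L1, a secretory-pathway factor, fell in both lines, at -0.91 ± 0.19 and -0.70 ± 0.22 (edgeR, adjusted p = 0.00305 and 0.0376). AGR2 fell in HCCC9810 from 942 ± 155 to 455 ± 64 CPM, and in RBE, where it is low, rose from 0.184 ± 0.0538 to 0.651 ± 0.375 CPM. ST6GALNAC1, a mucin sialyltransferase, fell in HCCC9810 at -0.84 ± 0.20 (adjusted p = 0.0079). The 2 called higher there were TFF2 and SERPINA1. TFF2 rose from 42.7 ± 6.12 to 60.1 ± 7.19 CPM (edgeR, adjusted p = 0.0389), and was at 0.0181 CPM or less on average in RBE. SERPINA1 rose at 0.55 ± 0.12 in HCCC9810 and fell in RBE at -0.49 ± 0.12. MUC13, a membrane mucin, rose in RBE at 1.34 ± 0.25, and FCGBP, a mucus protein, fell there at -1.09 ± 0.27. The summed level of the 20 listed genes was 1840 to 2260 CPM in HCCC9810 control and 1170 to 1550 CPM with anlotinib, and 199 to 233 and 150 to 179 CPM in RBE.

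**Figure D5:**
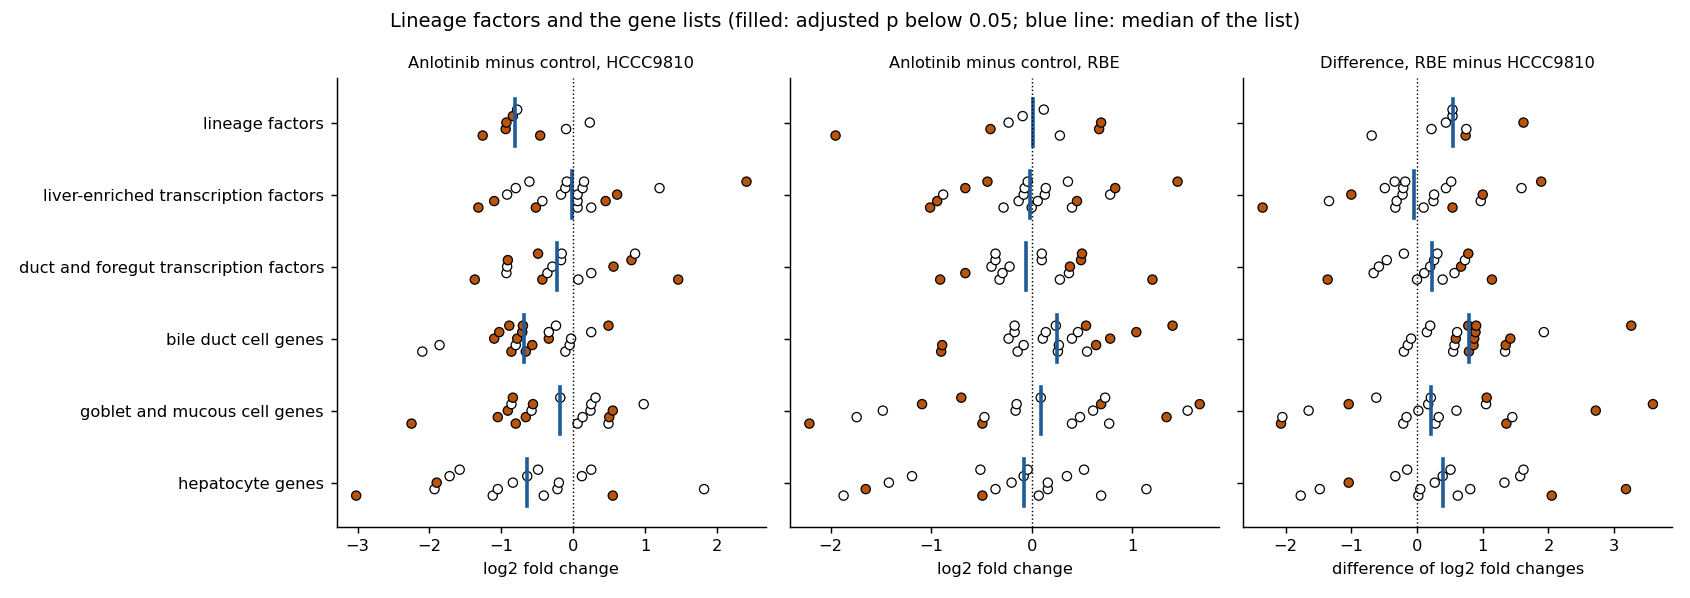
Log2 fold changes with anlotinib in HCCC9810 (left) and RBE (middle) and their difference (right) for the 8 lineage factors and 5 gene lists (rows); each point is a tested gene, filled where the adjusted p was below 0.05, and the blue line is the median. The bile duct row has its median at -0.68 in HCCC9810, 0.25 in RBE and 0.78 for the difference.

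Over all genes tested, 23.9% were called with anlotinib in HCCC9810 and 17.7% in RBE, the background for the 2 lists here. Hepatocyte genes gave 1 of 17 higher and 2 lower in HCCC9810 and 0 higher and 2 lower in RBE (edgeR). At an unadjusted p under 0.05 the RBE counts were 0 and 4, and DESeq2 and limma called 0 and 2. SERPINA1, the antitrypsin gene, rose in HCCC9810 at 0.55 ± 0.12 and fell in RBE at -0.49 ± 0.12, a difference of -1.04 ± 0.17 (adjusted p = 0.00107). Genes of the Notch and YAP pathways, which act upstream of SOX9 in mouse duct cells, gave 4 of 21 higher and 4 lower in HCCC9810 and 3 higher and 2 lower in RBE. The HCCC9810 counts fell to 0 lower without HCCC9810 control 8 or anlotinib 11, to 1 lower without anlotinib 12, and to 2 higher without control 9 or anlotinib 11 or 12. CTGF, a YAP target, rose in both lines, at 1.02 ± 0.29 and 1.93 ± 0.25, and CYR61 in both at 0.76 ± 0.15 and 0.69 ± 0.15. HES1, a Notch target, fell in HCCC9810 at -0.43 ± 0.13 (adjusted p = 0.0247) and had -0.32 ± 0.13 in RBE (adjusted p = 0.0987). NOTCH1 rose in HCCC9810 at 0.82 ± 0.12 (edgeR, adjusted p = 0.000265) and had -0.12 ± 0.12 in RBE. Its effects differed between the lines by -0.94 ± 0.17 (edgeR, adjusted p = 0.00221). HES4 had 0.07 ± 0.22 in HCCC9810 and rose in RBE at 0.76 ± 0.25, while NRARP fell in both, at -0.72 ± 0.19 and -0.65 ± 0.16.

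Non-coding genes beside the factors were sparse, with 4 of 10 listed tested. LINC00511, on the same chromosome arm as SOX9, fell in both lines, at -0.45 ± 0.10 and -0.51 ± 0.10 (edgeR, adjusted p = 0.00657 and 0.00277). CASC15, the long non-coding neighbour of SOX4, fell in HCCC9810 from 0.815 ± 0.311 to 0.118 ± 0.108 CPM and stood at 4.4 ± 0.484 and 4.6 ± 0.471 CPM in RBE. Its effects differed by 2.94 ± 0.63 (adjusted p = 0.00607), in the same direction as those of SOX4. That difference rests on the low HCCC9810 values, since the CASC15 change in RBE was 0.08 ± 0.23 (edgeR, adjusted p = 0.872). SOX9-AS1 had 0.769 ± 0.227 CPM in RBE control and 1.53 ± 0.147 CPM with anlotinib (adjusted p = 0.0507).

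The genes whose profile was most like each factor were found by Pearson r of log2 CPM over the 12 libraries, after subtracting the mean of each line. These libraries share treatment and depth, and r is given as a description. TSEN15 was most like SPDEF at r = 0.987, followed by ZMYM3 at 0.983 and EML1 at 0.982. For FOXA1 they were AFAP1L2 at 0.986, STK32A at 0.982 and BCL9 at 0.982. SAMD12 at 0.984, NRCAM at 0.977 and UGDH at 0.972 were most like ONECUT2. The nearest gene was RCN1 for SOX4 at 0.951, GRAMD1A for FOXA2 at 0.945, GPR37L1 for GATA6 at 0.954, RRBP1 for SOX9 at 0.961 and FRAT1 for HNF4A at 0.901.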

How the data were processed

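Per the labels' protocols, total RNA from HCCC9810 and RBE cells was sequenced with paired ends. Per the submitters' processing notes, HISAT2 and GRCh38 were used. Versions, the counting program and the strand setting are not given in the sources used here. Raw counts per Ensembl gene and RPKM values were deposited by the authors. The deposited RPKM equal the count divided by gene length and library total within 0.1%. All 58216 gene identifiers were found in GENCODE 29, and 56640 carried the same symbol.

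Counts were fitted with edgeR 4.0.16 in R 4.3.3 as 4 group means over 12 libraries, with TMM scaling, the filterByExpr filter (minimum count 10), the robust quasi-likelihood F-test (two-sided) and Benjamini-Hochberg adjustment over 18035 genes. The standard error is the log2 fold change over the square root of F. The 95% intervals use the fitted degrees of freedom. The steps were tested on simulated data. Comparisons were anlotinib against control in each line, the difference of these effects as RBE minus HCCC9810, and the untreated lines. The comparison of the untreated lines shares its control libraries with the others. No technical batch is named in the labels.

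The alternatives were DESeq2 1.42.0, other scalings and filters, limma 3.58.1 on log2(RPKM + 1), for genes with a mean of at least 0.1, and on log2(RPKM + 0.1), each line alone, a smooth correction for GC content and length (mgcv), and leaving out libraries. The 8 genes and all lists were chosen with earlier results of these data known. From each list, up to 3 called genes per direction and comparison with the largest changes, separate CPM ranges and at least 1 CPM in the higher group were to be named. Some genes of the lists are not reported here. Of the others, a selection is given, with its values in the other comparisons beside it. KRT19, EPCAM, PKHD1, CFTR, ALB, SERPINA1, LUM and PECAM1 served as markers, and relatives and non-coding neighbours were given whether called or not. Promoter windows came from RefSeq.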

Additional observations from a re-analysis of the deposited data

Results flagged for a closer look

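SOX4 and ONECUT2 were flagged because anlotinib was followed by different effects in the 2 lines, by edgeR's interaction contrast. That contrast called 16.6% of all genes tested. For ONECUT2 the effect in RBE exceeded that in HCCC9810 by 1.62 on the log2 scale, with an edgeR call in each line (the RBE call was lost with limma on log2(RPKM + 0.1)) and opposite directions in 6 of 6 treated libraries against the controls of their line. For SOX4 it exceeded that in HCCC9810 by 0.74, with the fall in HCCC9810 called and the RBE change of 0.28 not called. What lies behind these differences was not tested.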

How the results depend on the processing

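No paired analysis was possible because the groups share no replicate number, in titles or headers. Over 687 results of single genes under alternative settings, 624 kept their direction and their side of the threshold, 39 lost a call, 19 gained one and 5 turned in direction. Against 5 factors called in HCCC9810, leaving out 1 library gave 4 to 5, and against 6 in the untreated lines 5 to 6. In RBE, where 4 were called, leaving out 1 library gave 2 to 4, limma on log2(RPKM + 1) gave 2 and on log2(RPKM + 0.1) 1. For the difference between lines, with 2 called, library totals, the stricter filter (minimum count 50), the GC and length correction and the fit without RBE anlotinib 6 and HCCC9810 control 7 each gave 4, limma on log2(RPKM + 0.1) gave 1, and leaving out 1 library gave 1 to 3. The turns in direction were all of results not called: SOX9 in HCCC9810 at 0.00 without HCCC9810 anlotinib 12 (-0.17 to 0.00 over single libraries left out); FOXA2 in RBE at 0.00 with limma on log2(RPKM + 0.1) and at 0.13 without RBE control 3 (-0.28 to 0.13); and the HNF4A difference at -0.11 and -0.01 with limma on the pseudocounts 1 and 0.1. The causes were not tested. Library totals moved the median of all genes from 0.09 to 0.22 for the difference. Genes called over the whole table were 4303 in HCCC9810 (2407 to 6359 over the alternatives), 3189 in RBE (1868 to 4969) and 2990 for the difference (1473 to 6413). Depth limits the precision of HNF4A in HCCC9810, with 13 counts over 3 control libraries.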
